A study of Mus musculus with 99 samples.

Results

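The Pax family comprises 9 genes in the mouse, Pax1 to Pax9, and all 9 were taken by name from the table of 55341 gene names counted by RNA-seq. Peaks of every antibody were assigned to a Pax gene when they reached its annotated span or the 2.5 kb on either side, here called its window. Mouse ESCs were studied in 4 lines. Parental cells carried creERT2 at ROSA26, were RING1A-/- throughout, controls included, and lost their floxed RING1B alleles after treatment with 4-hydroxytamoxifen (OHT, 0.5 µM), with ethanol as vehicle without OHT. The RING1B WT and RING1B I53S lines were sub-clones of the Parental cells that expressed a FLAG-HA-tagged RING1B from the CAG promoter, either wild type or with a substitution that removes its ubiquitin ligase activity. MTF2 KO derivatives, which lack Mtf2, were made from each of these 3 lines. Eed fl/fl cells with creERT2 at ROSA26 were a separate line, derived from blastocysts and listed by the study as 2 clones, and lost Eed with OHT. The lines are listed as of 129P2/Ola origin, and cells grew on gelatin in serum with LIF and 2i inhibitors. OHT was given for 72 h, except that the titles of 6 JARID2 and MTF2 libraries give 48 h where their other labels give 72 h.

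Pax genes encode transcription factors that share a DNA-binding paired domain and set up organs and cell types in the embryo. Pax1 and Pax9 act in the sclerotome and the pharyngeal pouches, and Pax9 also in teeth. Pax2, Pax5 and Pax8 form a subfamily with roles in kidney and midbrain-hindbrain boundary, with Pax5 known for B cells and Pax8 for the thyroid. Pax3 and Pax7 pattern the dorsal neural tube and mark neural crest and muscle progenitors. Pax4 and Pax6 act in pancreatic islets, and Pax6 is required for the eye. In ESCs such developmental genes are held silent by Polycomb complexes. PRC1 contains RING1A or RING1B, which place a single ubiquitin on histone H2A (H2AK119ub1), together with a PCGF subunit and either a CBX protein such as CBX7 or RYBP. PRC2 contains SUZ12 and EED and methylates histone H3 (H3K27me3), in one form with subunits that include MTF2 and EPOP (PRC2.1) and in another with JARID2 and AEBP2 (PRC2.2).

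RNA-seq counts were read for 16 libraries, 2 in each of 8 groups, with 6957248 to 12743460 counted reads each. Nothing in the labels says that the 2 libraries of a group came from separate cultures, so p-values measure the spread between these libraries. ChIP-seq was read as 70 peak lists for 12 antibodies, with 1 library for each condition except for MTF2 and JARID2 at 72 h in the 2 rescue lines, which had 2. Of 4 peak lists from input chromatin, 0 had a peak at a Pax gene. Peak lists hold positions and a score but no reads, so the number and width of peaks move with the depth of each library, which is unknown here. The counts of Rnf2, the gene of RING1B, were 228 CPM (counts per 1000000 counted reads) without and 155 CPM with OHT in Parental cells, and they cover all its exons, deleted or not. They were 270 and 203 CPM in RING1B I53S and 273 and 246 CPM in RING1B WT cells. Ring1, the gene of RING1A, had group means of 1.29 to 3.88 CPM in these lines. In Eed fl/fl cells Eed was at 214 ± 58.3 CPM without and 55.4 ± 16.5 CPM with OHT (SD, n = 2). The summed level of 8 ESC markers was 5086 to 6440 CPM in Parental cells without OHT and 2736 to 2864 CPM with it, and 4372 to 5535 CPM against 2768 to 2857 CPM in RING1B I53S cells. In RING1B WT cells it was 4642 to 5474 CPM without and 4541 to 4742 CPM with OHT. By the test below 3 of 8 fell in Parental cells, Sox2, Zfp42 and Tdgf1. Most markers of other lineages were higher. Those of primitive endoderm summed to 2.36 to 2.47 CPM in untreated Parental cells and 33.5 to 34.4 CPM with OHT, with 6 of 6 genes higher, and Gata6, Sox7 and Foxa2 were at 0 counts before. With OHT they summed to 25.7 to 28.9 CPM in RING1B I53S and 5.64 to 9.09 CPM in RING1B WT cells. Trophoblast markers went from 112 to 131 CPM to 204 to 238 CPM, mesoderm markers from 2.97 to 3.10 CPM to 15.2 to 17.6 CPM and fibroblast markers, of which Col3a1 stayed at 0, from 11.9 to 14.02 CPM to 45.7 to 48.3 CPM. Of the neural progenitor markers, which summed to 69.8 to 99.3 CPM without and 51.6 to 60.03 CPM with OHT, Nes rose and Tubb3 fell. Of the markers tested 4 of 6 rose for trophoblast, 3 of 4 for mesoderm and 2 of 3 for fibroblasts in Parental cells, where 15.1% of all tested genes rose. In RING1B WT cells 3 of 6 trophoblast markers rose with OHT (Gata3, Hand1 and Krt7), where 1.34% of all genes rose, and no other marker was called. In RING1B I53S cells with OHT these lists summed to 157 to 173, 13.3 to 15.3 and 39.5 to 49.9 CPM, and in RING1B WT cells to 118 to 164, 4.73 to 5.64 and 20.6 to 20.7 CPM. In Eed fl/fl cells trophoblast markers summed to 88.4 to 114 CPM without and 144 to 158 CPM with OHT, primitive endoderm markers to 14.4 to 18.3 and 19.8 to 24.9 CPM, mesoderm markers to 6.29 to 11.6 and 8.84 to 13.9 CPM, fibroblast markers to 18.5 to 31.1 and 28.1 to 44.7 CPM, and neural markers to 137 to 183 and 108 to 145 CPM. ESC markers there summed to 4839 to 5768 CPM without and 4099 to 4971 CPM with OHT, and 0 markers of any list were called. The part of these cells in the Pax levels was not tested, and in such bulk samples fewer cells of a type and less RNA per cell cannot be told apart.

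In the GRCm38 build with the GENCODE M21 annotation, Pax1 spans chr2:147361925-147393295 (plus strand) and Pax6 chr2:105668900-105697364 (plus strand), on the same chromosome as Pax8 at chr2:24420560-24475599 (minus strand). Pax5 at chr4:44524757-44710487 (minus strand) and Pax7 at chr4:139737062-139833528 (minus strand) also share one. Pax2 lies at chr19:44756045-44837871 (plus strand), Pax3 at chr1:78101267-78197134 (minus strand), Pax4 at chr6:28442334-28449353 (minus strand) and Pax9 at chr12:56691767-56712822 (plus strand). Their spans run from 7020 bp (Pax4) to 185731 bp (Pax5), where the median over protein-coding genes is 17403 bp.

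Start regions of 7 Pax genes were found in the RefSeq promoter table for GRCm38.p6, as 10 windows, and Pax3 and Pax4 are named only. The 250 bases upstream of a start are printed below, in the direction of the gene. They cover the 6 genes with a window that overlaps no annotated exon, because these windows overlap the Polycomb peaks described next. Pax2 has another such window, farther from its annotated start. Capitals mark each CG dinucleotide (CpG), the only motif searched, which reads the same on both strands. The Pax9 window is chr12:56695221-56695470 (plus strand), and the Pax1 window chr2:147364744-147364993 (plus strand), each inside the annotated span of its gene. Window 2 of the 3 for Pax2 is chr19:44755502-44755751 (plus strand), the Pax5 window chr4:44710695-44710944 (minus strand), window 1 of the 2 for Pax6 chr2:105668646-105668895 (plus strand) and the Pax8 window chr2:24475600-24475849 (minus strand), all 5′ of the annotated span.
Pax9: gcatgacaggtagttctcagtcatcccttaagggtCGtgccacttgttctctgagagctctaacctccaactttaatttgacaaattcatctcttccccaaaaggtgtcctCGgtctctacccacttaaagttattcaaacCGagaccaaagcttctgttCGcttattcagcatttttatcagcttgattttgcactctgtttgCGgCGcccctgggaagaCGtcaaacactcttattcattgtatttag
Pax1: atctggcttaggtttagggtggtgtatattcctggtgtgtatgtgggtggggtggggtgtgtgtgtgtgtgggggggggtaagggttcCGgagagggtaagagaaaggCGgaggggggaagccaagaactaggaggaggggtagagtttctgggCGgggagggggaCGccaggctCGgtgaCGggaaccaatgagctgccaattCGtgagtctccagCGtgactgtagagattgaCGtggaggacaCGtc
Pax2: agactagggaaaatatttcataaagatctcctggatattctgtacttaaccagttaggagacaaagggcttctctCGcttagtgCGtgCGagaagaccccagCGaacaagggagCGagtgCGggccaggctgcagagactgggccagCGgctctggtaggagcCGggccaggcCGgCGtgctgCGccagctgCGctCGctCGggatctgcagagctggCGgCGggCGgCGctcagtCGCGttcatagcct
Pax5: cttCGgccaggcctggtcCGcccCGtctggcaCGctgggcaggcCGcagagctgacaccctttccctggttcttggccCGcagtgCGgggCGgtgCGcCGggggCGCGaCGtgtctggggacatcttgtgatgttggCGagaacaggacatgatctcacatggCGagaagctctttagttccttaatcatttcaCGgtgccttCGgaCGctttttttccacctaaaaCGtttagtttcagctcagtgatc
Pax6: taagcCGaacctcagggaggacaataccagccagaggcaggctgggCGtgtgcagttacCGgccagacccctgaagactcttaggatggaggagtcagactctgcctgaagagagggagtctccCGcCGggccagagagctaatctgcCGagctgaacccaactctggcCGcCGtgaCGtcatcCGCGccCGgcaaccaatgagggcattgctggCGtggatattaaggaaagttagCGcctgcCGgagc
Pax8: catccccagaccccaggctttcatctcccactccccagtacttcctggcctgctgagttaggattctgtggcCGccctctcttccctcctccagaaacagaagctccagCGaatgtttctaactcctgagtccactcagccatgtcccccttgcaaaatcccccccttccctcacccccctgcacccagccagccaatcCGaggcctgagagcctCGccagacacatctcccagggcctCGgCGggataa
The Pax5 window held 19 CpG, Pax2 20, Pax6 15, Pax1 10, Pax9 7 and Pax8 6, where the median over all 32851 windows of this length was 6 and 92.1% of them held at least 1. The other 4 windows held 25 and 5 CpG (Pax2), 15 (Pax6) and 13 (Pax7). In untreated Parental cells all 10 windows overlapped a RING1B peak by at least 1 bp, as did 9.2% of all windows. With OHT 0 of 10 did so in Parental cells (0.0304% of all), 9 of 10 in RING1B WT cells (6.26%) and 1 of 10, window 3 of Pax2, in RING1B I53S cells (0.274%). SUZ12 peaks overlapped all 10 windows without OHT (16% of all) and 6 of 10 in Parental cells with OHT (9.64%). Those 6 were the 3 windows of Pax2 and those of Pax5, Pax7 and Pax9. Both Pax6 windows and those of Pax1 and Pax8 no longer overlapped a SUZ12 peak. In RING1B I53S cells with OHT 5 of 10 overlapped one (5.25%), the Pax9 window being the one that did so in Parental cells and not there.

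The Pax genes were near silent in untreated cells of the Parental line and its derivatives. Compared per kb of merged exons, the highest mean in untreated Parental cells was that of Pax8, at 0.239 ± 0.137 CPM per kb (SD, n = 2), followed by Pax5 at 0.102 ± 0.0139. The lowest were Pax2, Pax9 and Pax1, at 0.0190 ± 0.00551, 0.0122 ± 0.0173 and 0.00907 ± 0.0128 CPM per kb, which overlapped, and Pax4 at 0 counts. By this measure 24.1% (Pax1) to 39.7% (Pax8) of 21924 protein-coding genes lay lower than the 8 detected members. With OHT the order changed. Pax3 reached 2.79 ± 0.156 CPM per kb and Pax9 2.29 ± 0.252, and these 2 did not overlap each other or any other member. Pax1, Pax8, Pax6, Pax2 and Pax7 followed at 0.845 ± 0.0934, 0.790 ± 0.0207, 0.775 ± 0.164, 0.740 ± 0.176 and 0.689 ± 0.438 CPM per kb, and neighbours among these 5 did not differ beyond their spread. Pax5 was at 0.174 ± 0.0274 and Pax4 at 0.0295 ± 0.0418. With OHT 58.3% of protein-coding genes lay below Pax3 and 55.0% below Pax9.

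**Figure D1:**
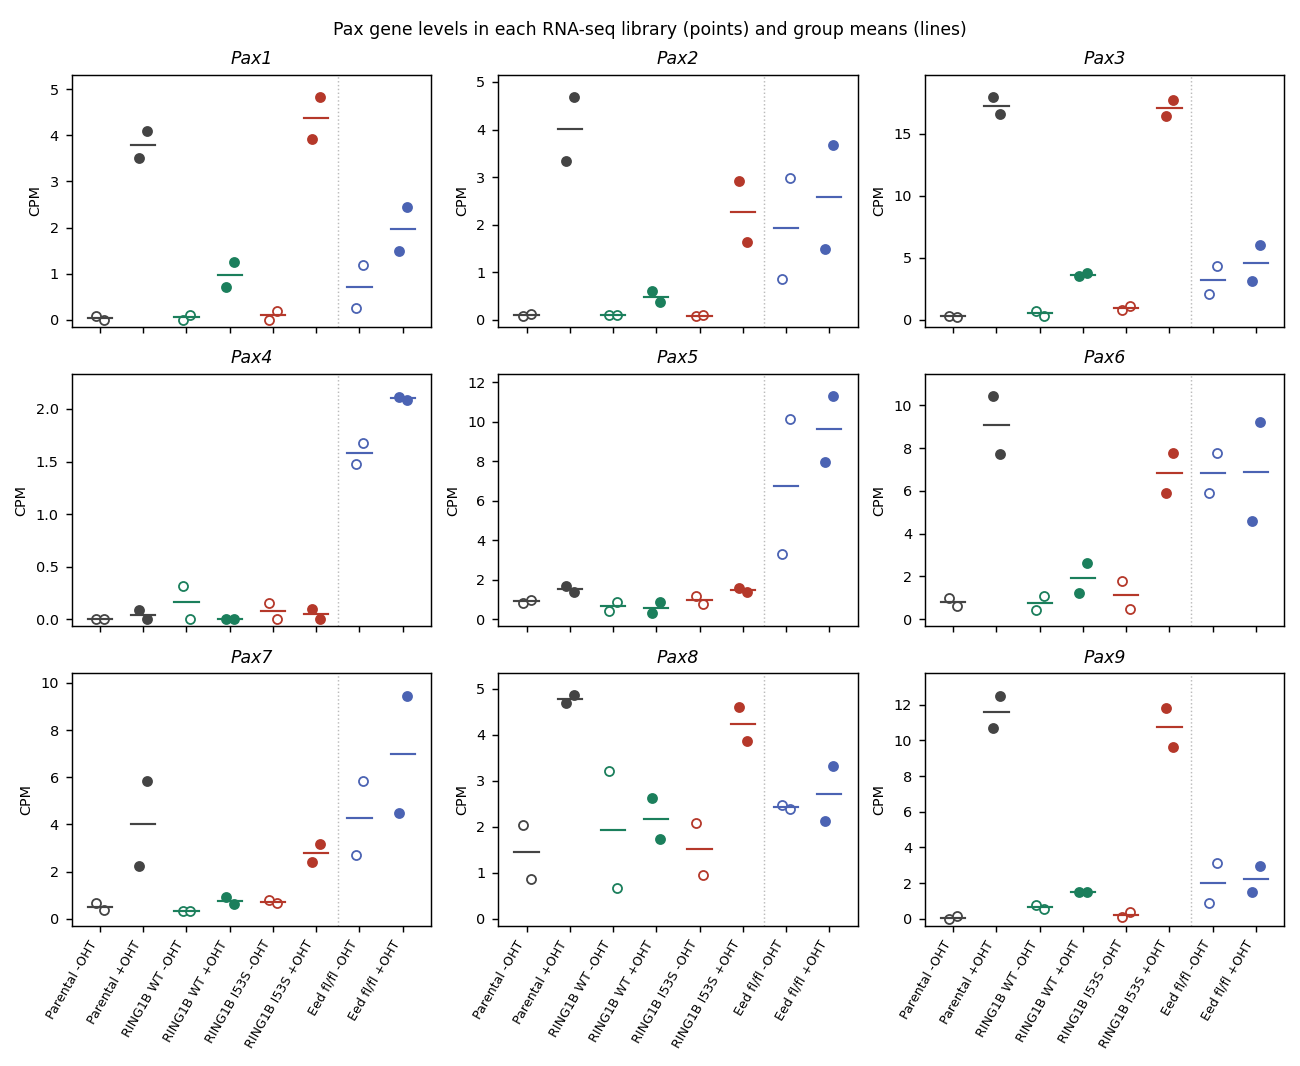
Level of each Pax gene in CPM (y axis, linear, own scale per gene) in each of the 16 RNA-seq libraries, in 8 groups. Points are libraries, open without OHT and filled with OHT, and lines are group means. A dotted line comes before the Eed fl/fl libraries, which were fitted apart. Every member but Pax4 was higher in each Parental and RING1B I53S library with OHT than in every library of the 3 lines without OHT. For Pax5 these levels were 1.36 CPM or more against 1.16 CPM or less, and it was at 0.302 to 1.71 CPM in all 12.

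To see what loss of RING1B did to the family, Parental cells with OHT were compared with those without. Of 8 Pax genes tested 7 rose, where 15.1% of all 18154 tested genes rose and 1.83% fell, and 0 Pax genes fell. For all 8 both treated libraries lay above both untreated ones. A gene was called, here and in all comparisons, when edgeR's quasi-likelihood test gave a Benjamini-Hochberg adjusted p (FDR) under 0.05 and the log2 fold change was 1.5 or more in size. The low-count filter, about 1.00 CPM in at least 2 libraries, favours members that rose. Pax1, Pax2, Pax7 and Pax9 passed it in 0 of the 6 untreated libraries, Pax3, Pax5 and Pax6 in 1 and Pax8 in 3, so their being higher with OHT is in part a condition of being tested, and the share of 7 of 8 is no support by itself. Pax4, with 7 counts over all 12 libraries, was not tested.

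Among the sclerotome genes, Pax9 was at 0 and 0.124 CPM in the 2 untreated Parental libraries and at 10.7 and 12.5 CPM with OHT. Its log2 fold change was 7.55 (SE 0.694, FDR 1.83e-07), and the 253 counts against 1 gave a ratio of 235 with a 95% counting interval of 41.7 to 9299. Pax1 was at 0.0815 and 0 CPM without and 3.50 and 4.09 CPM with OHT, a log2 fold change of 5.97 (SE 0.929, FDR 6.44e-05), from 83 counts against 1 (ratio 76.9, interval 13.4 to 3075). Neither gene had more than 1 count in an untreated Parental library, so the sizes of these changes are known only within such intervals, which cover counting error alone.

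Pax3 was the most abundant member after OHT, with 0.326 and 0.247 CPM in untreated Parental cells and 17.9 and 16.6 CPM with OHT. It rose by 5.82 on the log2 scale (SE 0.449, FDR 2.5e-08). Its close relative Pax7 was at 0.652 and 0.371 CPM without OHT and spread from 2.22 to 5.85 CPM with it (log2 fold change 2.89, SE 0.624, FDR 0.00129). Without the higher of these, Parental +OHT replicate 2, the Pax7 FDR was 0.0589.

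Of the kidney and hindbrain subfamily, Pax2 went from 0.0815 and 0.124 CPM to 3.33 and 4.68 CPM, with a log2 fold change of 5.18 (SE 0.784, FDR 4.82e-05) and 87 counts against 2 (ratio 40.3, interval 10.8 to 338). Pax8 was at 2.04 and 0.865 CPM without OHT and 4.70 and 4.87 CPM with it. Its log2 fold change of 1.66 (SE 0.571, FDR 0.0296) was the smallest called, and it lost the call without Parental -OHT replicate 2 (FDR 0.206), Parental +OHT replicate 1 (FDR 0.0894) or Parental +OHT replicate 2 (FDR 0.102). Pax5, the B cell factor, was at 0.815 and 0.989 CPM without and 1.71 and 1.36 CPM with OHT, and its log2 fold change of 0.78 (SE 0.632) did not pass the test (FDR 0.369). The eye and islet gene Pax6 was at 0.978 and 0.618 CPM without and 10.4 and 7.70 CPM with OHT (log2 fold change 3.45, SE 0.555, FDR 9.06e-05). Pax4 had 0 counts in both untreated Parental libraries and 1 and 0 with OHT, which is under the floor of 3 counts, so no fold is given.

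Cells with catalytically inactive RING1B were compared in the same way. In the RING1B I53S line 6 of the 8 tested members rose with OHT and 0 fell, where 12.8% of all tested genes rose. Pax9 was at 0.0773 and 0.384 CPM without and 11.8 and 9.64 CPM with OHT, a log2 fold change of 5.56 (SE 0.551, FDR 9.55e-07). For Pax3 the levels were 0.773 and 1.15 CPM against 16.4 and 17.7 CPM (4.15, SE 0.371, FDR 3.43e-07). Pax1 was at 0 and 0.192 CPM against 3.91 and 4.82 CPM, with 95 counts against 2 (ratio 51.4, interval 13.9 to 431), and Pax2 at 0.0773 and 0.0959 CPM against 2.91 and 1.64 CPM, with 48 counts against 2 (ratio 26.0, interval 6.81 to 221). Both were called, with log2 fold changes of 5.47 (FDR 6.73e-05) and 4.54 (FDR 0.000316). Pax6 was at 1.78 and 0.480 CPM without OHT and 5.92 and 7.75 CPM with it (2.54, SE 0.522, FDR 0.00117). Pax7 was at 0.773 and 0.672 CPM without and 2.41 and 3.19 CPM with OHT (1.93, SE 0.594, FDR 0.0200). For these 6 genes, and also for Pax5 and Pax8 below, the treated libraries lay above the untreated ones without overlap. The Pax7 call was lost without RING1B I53S -OHT replicate 1 (FDR 0.0731), -OHT replicate 2 (FDR 0.123) or +OHT replicate 2 (FDR 0.0847). Pax8, at 2.09 and 0.959 CPM against 4.61 and 3.87 CPM, had a log2 fold change of 1.45 (FDR 0.0637) and was called without RING1B I53S -OHT replicate 1 (2.12, FDR 0.0484). With the replicate number as a block Pax8 was called too (1.54, FDR 0.0218). Pax5, at 1.16 and 0.767 CPM against 1.60 and 1.38 CPM, had a log2 fold change of 0.61 (FDR 0.508).

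In cells rescued with RING1B WT, only Pax3 of the 8 tested genes rose with OHT, where 1.34% of all tested genes rose. Pax3 was at 0.749 and 0.329 CPM without and 3.52 and 3.74 CPM with OHT, a log2 fold change of 2.72 (SE 0.455, FDR 0.00348), and lost the call without RING1B WT -OHT replicate 2 (FDR 0.0868). Pax1 was at 0 and 0.110 CPM against 0.704 and 1.25 CPM. Its log2 fold change of 3.87 (SE 1.10, FDR 0.0717) rested on 17 counts against 1 (ratio 17.5, interval 2.74 to 730.3), and it was called when no filter on low counts was set (3.85, FDR 0.0170). Pax9 was at 0.749 and 0.548 CPM without OHT, more than in either Parental library, and at 1.51 and 1.49 CPM with it (1.19, FDR 0.307). Treated and untreated libraries overlapped for Pax5 and Pax8 and not for the other 6. The log2 fold changes of Pax2, Pax6 and Pax7 were 2.08, 1.29 and 1.22, with FDR of 0.312 to 0.485. Those of Pax5 and Pax8, at -0.19 and 0.18, changed sign without RING1B WT -OHT replicate 2 or RING1B WT +OHT replicate 1, which brought them to 0.40 and 0.41 for Pax5 and to -0.54 and -0.16 for Pax8.

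**Figure D2:**
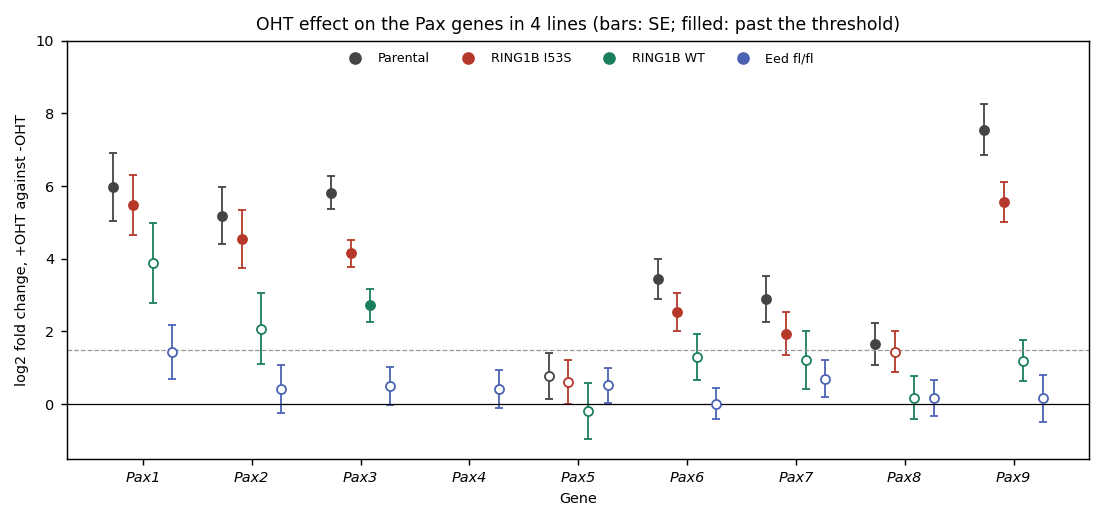
Log2 fold change with OHT against without (y axis) of each Pax gene (x axis) in the Parental, RING1B I53S, RING1B WT and Eed fl/fl lines, with SE as bars, filled points for genes that passed the threshold and a dashed line at 1.5. Parental values reach 7.55 for Pax9, the RING1B I53S values lie below them for all 8 genes tested, and in Eed fl/fl cells the 9 values lie between 0.01 and 1.43 and none passes.

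Among cells that all received OHT, RING1B WT cells held 6 of the 8 tested members lower than Parental cells, where 7.62% of all tested genes were lower. The log2 differences were -2.93 for Pax9, -2.98 for Pax2, -2.36 for Pax7, -2.27 for Pax6, -2.25 for Pax3 and -1.97 for Pax1 (FDR 0.00011 to 0.0293). Pax5 and Pax8, at -1.42 and -1.12, did not pass (FDR 0.159 and 0.173). With OHT, RING1B I53S cells held 5 of 8 higher than RING1B WT cells, where 6.02% of all genes were higher. These were Pax9 by 2.83, Pax3 by 2.23, Pax1 by 2.17, Pax2 by 2.16 and Pax6 by 1.86, and Pax7 at 1.84 had an FDR of 0.0506 and was called with RLE normalization, with no filter on low counts, and under a replicate block. The low-count filter bears on these shares too. Pax2 and Pax7 reached its level in 4 libraries, those of Parental and RING1B I53S cells with OHT. Being high there was in part a condition of being tested, so the shares are no support by themselves. These comparisons share libraries with those above and with each other. With 1 library left out, Pax2, Pax3 and Pax9 kept the first of these calls in every run, whereas Pax1 lost it without any of the 4 libraries (FDR 0.0692 to 0.221), Pax6 without RING1B WT +OHT replicate 1 or Parental +OHT replicate 1 (0.0888 and 0.0518), and Pax7 without RING1B WT +OHT replicate 1, RING1B WT +OHT replicate 2 or Parental +OHT replicate 2 (0.0629, 0.0845 and 0.231). In the second comparison Pax3 and Pax9 kept it. Pax1 lost it without RING1B WT +OHT replicate 1, RING1B WT +OHT replicate 2 or RING1B I53S +OHT replicate 2 (0.195, 0.0631 and 0.0678) and Pax6 without RING1B WT +OHT replicate 1 or RING1B I53S +OHT replicate 2 (0.215 and 0.0733). Pax2 lost it without RING1B WT +OHT replicate 1, RING1B WT +OHT replicate 2 or RING1B I53S +OHT replicate 1 (0.121, 0.188 and 0.161).

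After OHT, 0 of 8 members differed between RING1B I53S and Parental cells, where 0.16% of all tested genes (29, with 901 at an unadjusted p under 0.05) did so in either direction. The log2 differences ran from -0.82 (Pax2, SE 0.517) to 0.20 (Pax1, SE 0.526), and Pax3 and Pax9 were at -0.01 (SE 0.288) and -0.11 (SE 0.361). The SEs were 0.288 to 0.595 over the 8 genes. A difference smaller than the log2 fold change threshold given above could not be called, whatever its SE. With 2 libraries a group a larger difference could also have been missed. The 0 calls therefore do not show that the Pax levels of these lines were alike.

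Without OHT no Pax gene was called between lines. Of all genes, 0.0606% were called between RING1B WT and Parental cells. The shares were 0.154% between RING1B I53S and Parental and 0.0441% between RING1B I53S and RING1B WT cells. At an unadjusted p under 0.05, 825, 947 and 960 genes differed. The largest log2 difference was 3.42 for Pax9 between RING1B WT and Parental cells (FDR 0.549). It rested on 12 counts against 1, a ratio of 13.2 with a 95% counting interval of 1.96 to 566. Pax3 was 1.65 higher in RING1B I53S than in Parental cells (FDR 0.575). Pax1, Pax2, Pax7 and Pax9 reached the filter level in 0 of these 6 libraries, so the lack of calls does not show that the lines were alike.

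The OHT effects themselves were compared between lines. The effect was smaller in RING1B WT than in Parental cells for Pax3 and Pax9, by 3.10 (SE 0.748, FDR 0.0344) and 6.36 (SE 1.054, FDR 0.00243) on the log2 scale, where 1.1% of all genes were lower by this test. For Pax9 the untreated levels enter too, since RING1B WT cells held 12 counts there and Parental cells 1. Between RING1B I53S and RING1B WT cells only Pax9 passed, with an effect 4.36 larger in RING1B I53S (SE 0.866, FDR 0.0239), where 0.209% of all genes were higher. Between RING1B I53S and Parental cells the OHT effects were called different for 0 members and 0% of all genes. Differences ran from -1.997 (Pax9) to -0.17 (Pax5), and 488 of all genes had an unadjusted p under 0.05. These 0 calls do not show that the effects were alike. The Pax9 difference between RING1B WT and Parental cells kept its call with each library left out. The Pax3 difference lost it in 7 of 8 such runs (FDR 0.0579 to 0.504), kept only without RING1B WT -OHT replicate 2. The Pax9 difference between RING1B I53S and RING1B WT lost it without RING1B WT -OHT replicate 1 (FDR 0.179), RING1B I53S -OHT replicate 1 (0.0897), RING1B WT +OHT replicate 1 (0.0932), RING1B WT +OHT replicate 2 (0.0520) or RING1B I53S +OHT replicate 1 (0.0507).

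Loss of EED, by which PRC2 rather than PRC1 is disabled, was read in Eed fl/fl cells. In these cells all 9 Pax genes passed the filter and 0 were called, where 0.00795% of 25170 tested genes (2, with 1372 at an unadjusted p under 0.05) were called in either direction. Eed itself was not called in this fit although its level fell with OHT. The 0 calls therefore do not show that the Pax genes were unchanged. The number of genes called over the whole table was unstable, at 161 with the replicate number as a block and 23 to 262 with 1 library left out, the highest without Eed fl/fl -OHT replicate 2, and 0 Pax genes were called in any of these fits. The largest log2 fold change was 1.43 for Pax1 (SE 0.750, FDR 0.833), from 0.247 and 1.195 CPM without to 1.49 and 2.45 CPM with OHT. Pax3 was at 2.098 and 4.30 CPM without and 3.11 and 6.01 CPM with OHT (0.51), Pax9 at 0.864 and 3.11 CPM against 1.49 and 2.95 CPM (0.16), and Pax6 at 5.92 and 7.77 CPM against 4.61 and 9.20 CPM (0.01). Pax4 was counted in all 4 libraries, at 1.48 and 1.67 CPM without and 2.12 and 2.09 CPM with OHT (0.41). Replicate 2 without OHT was higher than replicate 1 for all members but Pax8. Within each replicate number Pax1, Pax2, Pax3, Pax4, Pax5 and Pax7 were higher with OHT than without, but the labels do not tie the numbers to the clones. These libraries had a count at 43762 to 46757 gene names, against 23578 to 28032 in the other 12. They were fitted apart, and their levels were not set against those of the other lines.

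On chromatin, PRC1 covered nearly the whole family in untreated Parental cells. RING1B had a peak at 8 of 9 Pax genes, all but Pax4, where 19.5% of 21951 protein-coding genes had one. Such shares, here and below, are not matched for span, and longer windows can hold more peaks. All Pax genes but Pax4 span 21056 bp or more, where the median protein-coding gene spans 17403 bp. PCGF2 and CBX7 had peaks at 9 of 9 (18.7% and 18.9%), PCGF6 at 6 (30.3%) and RYBP at 5 (13%). As a share of the window the cover was highest at Pax6 and Pax9. RING1B peaks covered 57.2% of the Pax6 window and 40.8% of the Pax9 window, against 24.4% at Pax1 and 4.03% to 14.5% at Pax2, Pax3, Pax5, Pax7 and Pax8. Both genes have short spans, 28465 and 21056 bp, whereas Pax5 spans 185731 bp. In bases, RING1B peaks covered 19.1 kb at Pax6, 14.7 kb at Pax7, 10.6 kb at Pax9 and 2.42 kb at Pax8, the least among the 8.

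With OHT RING1B and PCGF2 peaks were at 0 of 9 Pax genes in Parental cells (2.36% and 0.392% of all genes) and a CBX7 peak was at Pax2 alone (0.278%). PCGF6 had peaks at Pax5 and Pax8 (21.2%). In RING1B WT cells with OHT, RING1B, PCGF2 and CBX7 had peaks at 8 of 9 members, Pax4 being the exception (15%, 13.9% and 9.94%), PCGF6 at 8 (28.5%) and RYBP at 3 (5.37%). The median member kept 80.6% of the RING1B bases of untreated Parental cells, against 64.5% for all genes with such a peak. PCGF6 peaks covered more than in untreated Parental cells, 45.4 kb against 13.2 kb over the family. The median member with a PCGF6 peak there had 324% of those bases, against 94.0% for all such genes, from 1 library each. In RING1B I53S cells with OHT, RING1B, CBX7 and RYBP each had 1 peak, at Pax2 (4.22%, 0.169% and 3.68%), and PCGF6 had peaks at Pax2 and Pax5 (11.1%). PCGF2 still had peaks at 6 of 9 (2.58%), the missing ones being Pax3, Pax4 and Pax8, and they covered 17.1 kb in all against 90.7 kb in untreated Parental cells. The RYBP library titled PARE72 could not be placed in a group from its labels and had 0 peaks at Pax genes.

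**Figure D3:**
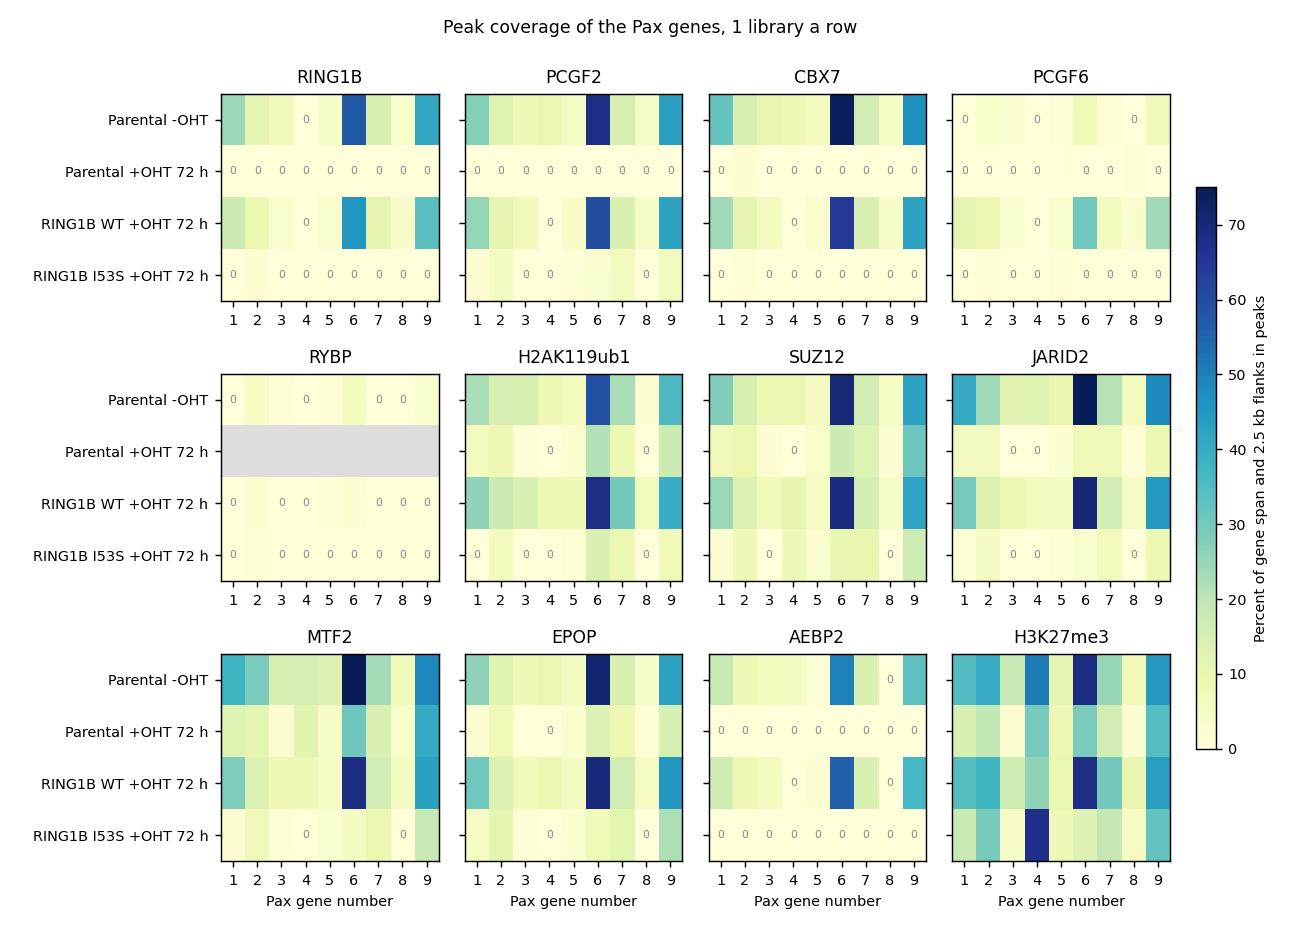
Share of each Pax window covered by peaks (color, in percent) for 12 antibodies (panels), 9 genes (x axis) and 4 conditions (rows, 1 library each, replicate 1 where there were 2), with 0 written where there was no peak and grey where no library could be placed in the group. RING1B covers Pax6 and Pax9 most in untreated Parental cells, and RING1B, PCGF2 and AEBP2 are empty for Parental cells with OHT.

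The mark placed by PRC1, H2AK119ub1, had peaks at 9 of 9 members in untreated Parental cells (26.3% of all genes), 7 with OHT (22.4%), 9 in RING1B WT (31.4%) and 5 in RING1B I53S cells with OHT (12.8%). Pax4 and Pax8 had none in Parental cells with OHT, and Pax1 and Pax3 had none besides in the I53S line. Over the 9 genes they covered 102 kb, 36.2 kb, 123 kb and 24.7 kb in this order of conditions. The median Pax gene kept 35.9% of its H2AK119ub1 bases in Parental cells with OHT, and the median of all genes with a peak kept 35.5%. Values for RING1B I53S were 21.7% against 0%. These lists carry no scaling to the spike-in chromatin, so a peak that remains says nothing of how much mark remained.

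Of PRC2, SUZ12 had peaks at 9 of 9 Pax genes in untreated Parental cells (31.4% of all genes), 8 with OHT (23%), 9 in RING1B WT (26.1%) and 7 in RING1B I53S cells with OHT (14.4%), over 98.3, 48.7, 91.8 and 33.3 kb. Retention differed among members. In Parental cells with OHT Pax7 kept 79.9% of its SUZ12 bases, the most, and Pax4 none, whereas the median was 44.6% for the Pax genes and 44.3% for all genes with a peak. In RING1B I53S cells Pax3 and Pax8 had no SUZ12 peak, and the Pax median of 40.3% stood beside 0% for all genes. H3K27me3 had peaks at 9 of 9 members in each of these 4 conditions (30.5%, 25.6%, 30.5% and 24.1% of all genes). They covered 159 kb in untreated and 80.4 kb in treated Parental cells, 155 kb in RING1B WT and 95.7 kb in RING1B I53S cells. Like the H2AK119ub1 lists, these carry no scaling to the spike-in chromatin, so their bases do not measure how much mark remained. The paper reports reduced H3K27me3 at RING1B target loci after loss of H2AK119ub1. At Pax3 the H3K27me3 cover fell to 1.99% of the window in Parental cells with OHT, from 18.6%, and at Pax8 to 2.12% from 7.78%. At Pax9 it covered 44.7% without and 34.3% with OHT. At Pax4, the one member without a RING1B peak, H3K27me3 covered 6.08 kb in untreated Parental cells and, with OHT, 3.55 kb in Parental, 3.13 kb in RING1B WT and 8.04 kb in RING1B I53S cells, so the direction differed between these single libraries.

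**Figure D4:**
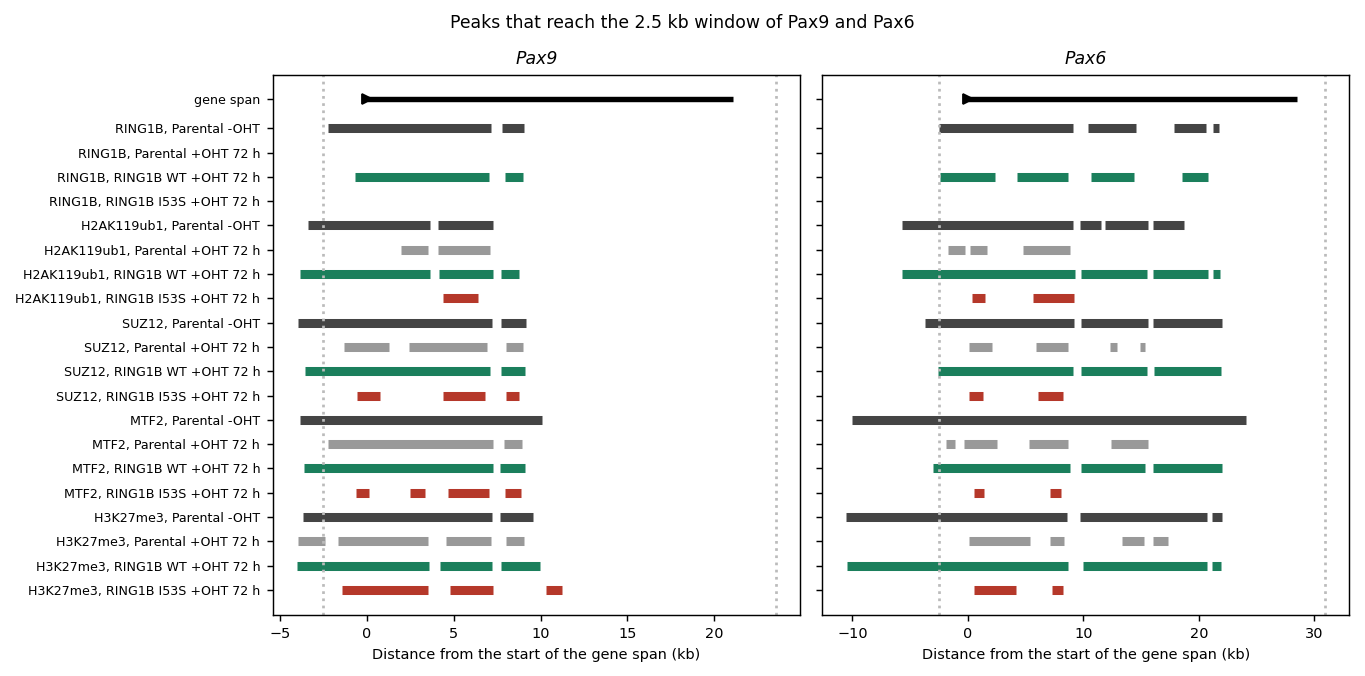
Peaks (bars) of 5 antibodies in 4 conditions (rows) along Pax9 and Pax6, by distance in kb from the start of the gene span (x axis), with the span as a black bar and dotted lines at the window's ends. The blocks of untreated Parental cells return in RING1B WT cells with OHT, RING1B rows are empty for Parental and RING1B I53S cells with OHT, and SUZ12, MTF2 and H3K27me3 leave shorter pieces.

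The subunits that tell the PRC2 forms apart were compared at the Pax genes by their peaks. Among PRC2.1 subunits, MTF2 had peaks at 9 of 9 members in untreated Parental cells (54.6% of all genes), at 48 h (31.5%) and at 72 h of OHT (27.6%). EPOP had peaks at 9 (26.2%) and, with OHT, at 8 (11.6%), at 9 in RING1B WT (26.4%) and at 7 in RING1B I53S cells (12.6%). Among PRC2.2 subunits, JARID2 had peaks at 9 of 9 without OHT (34.8%), 8 at 48 h (11.9%) and 7 at 72 h (5.62%). AEBP2 had peaks at 8 of 9 (4.6%), all but Pax8, at 0 in Parental cells with OHT (0.0683%), at 7 in RING1B WT (4.92%) and at 0 in RING1B I53S cells (0.132%). Of its MTF2 bases the median Pax gene kept 61.1% at 48 h and 40.2% at 72 h in Parental cells, against 26.1% and 1.23% for all genes with a peak. Of its JARID2 bases it kept 30.4% and 14.6%, against 0% and 0%. In RING1B WT cells at 72 h of OHT the median Pax gene kept 69.4% of MTF2 and 73.4% of JARID2 bases. The medians of all genes with a peak were 23.1% and 28.7%. Values in RING1B I53S cells were 7.28% and 3.79%, against 0% and 0%. These are replicate 1 libraries, set against the same untreated Parental lists. That MTF2 list held 24485 peaks, against 13559 in untreated RING1B WT cells, and its part in these losses was not tested.

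The rescue lines had their own untreated libraries for these antibodies. In RING1B WT cells JARID2 was at 9 of 9 members without OHT (23.6% of all genes), at 48 h (19.9%) and in both libraries at 72 h (20.3% and 20%), and MTF2 at 9 of 9 without OHT (39.9%), at 48 h (33.5%) and in both at 72 h (30.4% and 27.6%). In RING1B I53S cells JARID2 was at 9 of 9 without OHT (21.7%), at 6 at 48 h (4.22%) and at 6 and 5 in the libraries at 72 h (4.36% and 1.8%). Pax2, Pax5, Pax6, Pax7 and Pax9 had a JARID2 peak in both of these, covering 17.9 and 14.8 kb over the family against 109 kb without OHT. MTF2 was at 9 of 9 without OHT (36.2%) and at 48 h (32.7%), and at 7 and 9 in the libraries at 72 h (12.6% and 28.1%). The 2 MTF2 libraries at 72 h did not match closely, with 30.4 and 66.6 kb covered at the Pax genes, against 94.9 and 99.6 kb in RING1B WT cells.

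Cells that lacked MTF2 were compared for SUZ12 and H3K27me3. Without OHT, SUZ12 stayed at 9 of 9 Pax genes in MTF2 KO cells (12.2% of all genes) and covered 96.9 kb against 98.3 kb with MTF2. Covered bases do not measure the strength of binding. The median score over all SUZ12 peaks was 15.02 in these MTF2 KO cells and 39.96 in Parental cells with MTF2, both without OHT. A score depends on depth, which is unknown here. The paper reports lower SUZ12 levels at RING1B target loci after MTF2 loss. The median Pax gene held 99.7% of its SUZ12 bases, with members from 85.8% to 117%, whereas the median over all genes with a SUZ12 peak was 0% and 62.6% of them had none left. H3K27me3 in the same cells was at 9 of 9 (13.8%) and covered 58.3 kb against 159 kb, a median of 34.0% per Pax gene against 0% for all genes. With OHT the MTF2 KO Parental cells had SUZ12 peaks at Pax2, Pax5, Pax6 and Pax7 (5.58%) over 5.78 kb, and 1 H3K27me3 peak, at Pax7 (1.04%), over 0.699 kb. The corresponding I53S cells had 1 SUZ12 peak, also at Pax7 (2.19%), over 1.67 kb, and H3K27me3 peaks at 5 members (4.18%) over 6.20 kb. MTF2 KO cells with RING1B WT kept SUZ12 at 9 (13.6%) over 93.2 kb and H3K27me3 at 7 (8.35%) over 43.5 kb. There was 1 library for each of these conditions, so no spread is known.

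**Figure D5:**
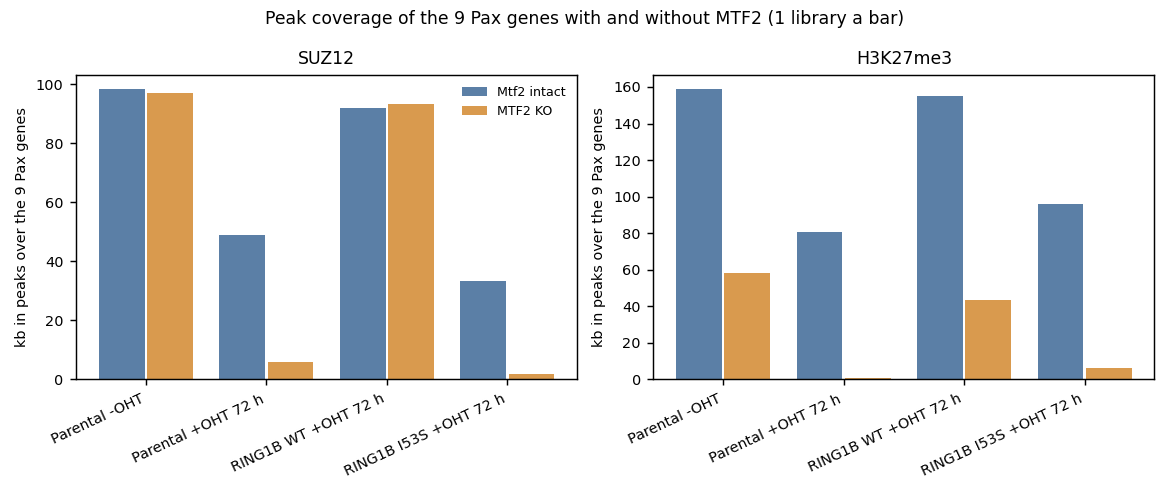
Bases of the 9 Pax windows covered by SUZ12 (left) and H3K27me3 (right) peaks in kb (y axis, from 0) in 4 conditions, with Mtf2 intact or deleted, 1 library a bar. SUZ12 bars with and without MTF2 are alike without OHT and in RING1B WT cells, and those of MTF2 KO cells fall to 5.78 and 1.67 kb in the other conditions. Bars show covered bases and not the strength of binding.

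Genes around the Pax loci were followed as well, those that overlap a Pax span because reads were counted without strand. Of 12 annotated genes that overlap a Pax span, 2 were tested in the 12 libraries. AI646519, antisense to Pax1 with 183 bp of shared exon, had 0 counts in untreated and 32 in treated Parental cells, at least 9.89-fold higher against a floor of 3 counts over the group (FDR 0.00214). Slc25a21, which shares 189 bp with the end of Pax9, rose by 4.27 on the log2 scale (FDR 0.0147). Reads of Pax1 and Pax9 cannot be told apart from theirs in the shared stretches, nor at Pax8 (367 bp shared with Gm13415) and Pax5 (125 bp with Gm12462 and 636 bp with 5730488B01Rik). Of the 18 nearest protein-coding genes on either side, 16 were tested and 4 rose in Parental cells, where 15.1% of all tested genes rose. These were Nkx2-9, a homeobox gene 78483 bp from Pax9 (6.58, FDR 1.43e-08), and Sgpp2, 113211 bp from Pax3 (2.37). The others were Cacna1b, a calcium channel gene 128288 bp from Pax8 (1.80), and Foxa2, a forkhead gene 649582 bp from Pax1. Foxa2, also among the primitive endoderm markers above, had 17 counts against 0, at least 5.25-fold higher. The 16 had a median log2 fold change of 0.20, where that of all genes was 0.03.

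Genes that work with or beside the PAX proteins in their tissues were listed by subfamily, and many were higher with OHT too. The low-count filter acts on these lists as on the family, and the background in Parental cells is again 15.1% higher and 1.83% lower. Around PAX1 and PAX9, 3 of 5 tested genes (of 9) rose, namely Tbx18 (5.204), Msx1 (4.72) and Osr2 (4.20), with a median of 4.20. Around PAX2, PAX5 and PAX8, 10 of 15 (of 18) rose. Lhx1, a kidney regulator, had 172 counts against 0, at least 53.1-fold, and Wt1 and the receptor gene Ret rose by 5.31 and 3.45. The median was 3.45, or 3.35 with 3 genes at their bound. Around PAX3 and PAX7, 6 of 9 (of 10) rose, among them Sox10 (3.48) and Met (1.83), and 1 fell, the melanocyte regulator Mitf (-2.28), with a median of 1.86. Around PAX4 and PAX6, 8 of 11 (of 20) rose, among them the eye field genes Six3 and Six6, at least 28.1-fold and 16.4-fold from 0 counts, and Isl1 (1.90), with a median of 4.21, or 3.35 with 4 genes at their bound. Of the SIX-EYA-DACH network, transcription factors and partners that act with PAX proteins, 5 of 10 rose, among them Eya2 (2.97), Six5 (2.25) and Six2 (at least 25.3-fold), with a median of 1.73. Of the PAX cofactors, chromatin and transcription proteins, 0 of 6 rose and Kdm6a, a histone demethylase gene, fell (-1.55), with a median of -0.31.

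In RING1B I53S cells the same lists, in this order, had 3 of 5, 11 of 15, 4 of 9, 7 of 11, 4 of 10 and 0 of 6 genes higher, with Mitf, Foxd3 and Eya1 lower, where 12.8% of all tested genes rose and 1.04% fell. In RING1B WT cells Wt1 and Eya2 rose and no other gene of these lists was called, where 1.34% of all rose. In Eed fl/fl cells no gene of the 6 lists was called.

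The genes whose pattern over the 12 libraries was most like that of the 2 most abundant members were found by the root-mean-square difference of log2(CPM + 1), each gene centred on its mean. Nfatc1, Hand1 and Nkx2-9 lay nearest to Pax3 (0.251, 0.274 and 0.281), and Rasgrf1, Gfra1 and Col25a1 nearest to Pax9 (0.258, 0.265 and 0.272). With a pseudocount of 0.25 in place of 1, Hand1 alone of the 6 was among the nearest.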

How the data were processed

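RNA-seq and ChIP-seq of mouse ESCs were analysed from the deposited files, with samples grouped by their labels. The deposited RNA table holds whole-number counts per gene, which the authors made with STAR 2.7 and featureCounts over exons without strand. The Eed fl/fl values are labelled as normalized but are whole counts too. The deposited peak lists give, as −log10 p, the MACS2 2.1.1 score of each peak, which the authors called per library (Bowtie 1.2.2, mm10, which is GRCm38, against input, lowest score 10). The authors' tables of fold changes and adjusted p were not used.

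Counts were fitted with edgeR 4.0.16 in R 4.3.3 (TMM, filterByExpr, quasi-likelihood test, prior count 0.125), 12 libraries in one model and the 4 Eed fl/fl libraries in another, with Benjamini-Hochberg adjustment over all 18154 or 25170 genes tested. SEs were derived from the F statistics. Counted reads per library had medians of 9991785 and 8382843. Replicates differed beyond sampling noise (chi-square per gene 6.48 to 25.7). Intervals are exact for counts and cover counting error only. Peaks were assigned by an overlap of at least 1 bp, and the share of a window's peak bases kept was computed against the reference library named. Peak counts were compared with 21951 protein-coding genes of GENCODE M21 by the same rule. Alternatives were DESeq2 1.42.0, other filters and sample sets, a replicate block, each library left out, other windows, overlaps and scores. The fit was tested on simulated data.

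The genes named were the 9 Pax genes, the genes the study deleted, genes overlapping a Pax gene, the nearest protein-coding gene on each side, up to 3 genes from each list by adjusted p, the 3 genes most like Pax3 and Pax9, and cell type markers. The members and lists were chosen with earlier results of these data known.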

Additional observations from a re-analysis of the deposited data

Results flagged for a closer look

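In 3 tests of whether the OHT effect differed between lines, a Pax gene passed. The log2 OHT effect of RING1B WT minus that of Parental cells was -3.10 for Pax3 (FDR 0.0344 by edgeR's quasi-likelihood test), from effects of 2.72 and 5.82. For Pax9 the same difference was -6.36 (FDR 0.00243), from 1.19 and 7.55. The effect of RING1B I53S minus that of RING1B WT was 4.36 for Pax9 (FDR 0.0239), from 5.56 and 1.19. Groups of 2 libraries were not searched for outlying samples.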

How the results depend on the processing

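With each library left out in turn, the number of Pax genes called was 5 to 7 in Parental cells (7 with all libraries), 5 to 6 in RING1B I53S cells (6) and 0 to 1 in RING1B WT cells (1). With OHT it was 3 to 4 for RING1B WT against Parental (6) and 2 to 4 for RING1B I53S against RING1B WT (5). For the difference in OHT effect it was 1 to 2 for RING1B WT minus Parental (2) and 0 to 1 for RING1B I53S minus RING1B WT (1). In the comparisons with 0 calls it stayed at 0 in these runs. With only 1 library left in a group, that library was assumed to vary like the others, and the cause of each lost call was not tested. With no filter beyond 1 count, 2 Pax genes were called in RING1B WT cells. Pax2 between RING1B I53S and RING1B WT cells with OHT was not called with DESeq2 (adjusted p = 0.0813) or in a fit of those libraries alone (FDR 0.0726). The OHT effect of Pax5 in RING1B WT cells was -1.09 to 0.41 and that of Pax8 -0.54 to 1.72 with each library left out. A minimum of 10 counts in every library left no Pax gene to test among the 12 libraries.

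The correlation of replicate differences between groups was -0.0093 to 0.425 among the 12 libraries, so replicate numbers were not taken as pairs. With the replicate number as a block, 7 Pax genes were called in Parental cells, 7 in RING1B I53S cells and 6, Pax7 added, between RING1B I53S and RING1B WT cells with OHT, and the other counts of Pax genes did not move. In Eed fl/fl cells the correlation was 0.502 over the only pair of groups, and 161 genes of the whole table were called with the block, 32 with DESeq2 and 2 without either, 0 of them Pax genes. Over the whole table the RING1B WT calls fell from 251 to 25 when replicate 2 of the untreated group was left out and to 30 when replicate 2 of the treated group was. Without RING1B WT +OHT replicate 1 the calls with OHT fell from 1576 to 703 against Parental and from 1201 to 413 against RING1B I53S cells, and the differences in OHT effect from 279 to 88 and from 63 to 10.

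Requiring a score of at least 20 brought 18 of the peak counts to 0 or changed them by a large factor. Counts that changed less are not listed. RYBP peaks were then at 0 Pax genes in each of its conditions, and PCGF6 at 2 in untreated Parental cells. CBX7 and PCGF6 were at 0 in Parental and RING1B I53S cells with OHT, and RING1B at 0 in RING1B I53S cells. In MTF2 KO cells H3K27me3 was at 1 Pax gene without OHT and, with OHT, at 0 in Parental, 1 in RING1B WT and 0 in RING1B I53S cells, and SUZ12 at 0 in the Parental and RING1B I53S ones with OHT. JARID2 and EPOP in Parental cells with 72 h of OHT were at 4 each, and JARID2 in RING1B I53S replicate 2 at 2. A score depends on depth, which is unknown here.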
